A study of Homo sapiens with 10 samples.

Results

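The human microglia described here were sorted from the brains of 5 AppHu mice, the control strain of an amyloid study. Of the 36591 human genes in the deposited table, 15723 reached 10 counts in 3 or more of the 5 AppHu libraries, and the word expressed below refers to these. The host carried a deletion of Rag2 and a replacement of part of mouse Csf1, including most of its coding sequence, by human CSF1. It also carried an App knock-in (AppKI in the labels) with the humanized amyloid-β sequence but none of the pathological mutations. Progenitors made from 1 human embryonic stem cell line, H9, were grafted at postnatal day 4 after the mouse microglia had been depleted with BLZ945, an inhibitor of the CSF1 receptor, and CD11b+ human CD45+ cells were sorted at 6 months. The 5 mice therefore share 1 human genome, and the spread between them holds no difference between donors. The paper states that the AppHu hosts were of both sexes. The sample titles do not give the sex of each mouse, so its part in the spread was not tested. The plaque load of these brains was not analysed here, and the 5 AppSAA libraries of the same series were not used. The question was which genes human microglia sorted from this control host express, and how far the 5 mice differ.

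Microglia are the resident macrophages of the brain. They arise in the yolk sac, depend on signalling through the CSF1 receptor, and keep their identity through TGF-β signalling and transcription factors such as PU.1, IRF8 and SALL1. In healthy tissue they are recognised by surface genes such as P2RY12 and CX3CR1, whose levels are known to be lower in cultured or activated cells.

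The libraries held between 29414003 and 39641854 counts, of which 3.12 to 4.97% fell on mouse genes. A single count was worth 0.0259 to 0.0359 CPM (counts scaled to the human total of the library, with TMM factors), and the scaling factors ran only from 0.981 to 1.016. Every pair of libraries differed by more than sampling noise, with a chi-square per degree of freedom of at least 13.6. None was therefore the same library sequenced again. Separate preparations from the same RNA are not covered by this check. Levels of different genes are compared below as TPM, which divides by the length of the exons and is scaled to a common total, and mice are compared in CPM. TPM could be computed for the 13263 expressed genes that matched an annotated gene, which held at least 98.9% of human counts in each library. The sources used here do not say whether the mice were grafted and sorted in 1 session, and the spread between them may be in part technical. As these are bulk samples, fewer cells of a type and less RNA per cell cannot be told apart.

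The 4 marker genes for human microglia stood among the most abundant transcripts in all 5 mice. P2RY12, the purinergic receptor that guides microglial processes to ADP, was at 16280 CPM in AppHu replicate 3, 14179 in replicate 4, 14492 in replicate 6, 14018 in replicate 7 and 15797 in replicate 8. Its mean of 28661 ± 1347 TPM (SD, n = 5) was the highest of any gene with a length. It was first or second in every library and changed places with FTL, the ferritin light chain, whose mean of 26785 ± 2714 TPM overlapped with it. The gene lies on the minus strand at chr3:151336843-151384753 (GRCh38, GENCODE 44).

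CX3CR1, the fractalkine receptor (chr3:39263495-39281735, minus strand), was measured at 9636, 8479, 9135, 8632 and 9454 CPM in replicates 3, 4, 6, 7 and 8. It ranked 7 by TPM, at 11112 ± 432 (SD, n = 5). CSF1R, the receptor on which microglial survival depends (chr5:150053291-150113372, minus strand), was at 10609, 9826, 10068, 9450 and 10436 CPM, or 8767 ± 235 TPM, at rank 10. These levels differed between the highest and the lowest mouse by far less than they differed from TMEM119. TMEM119, a membrane protein used to tell microglia from other macrophages (chr12:108589851-108598320, minus strand), was at 973, 841, 849.8, 894 and 938 CPM, which is 1265 ± 59.4 TPM and rank 83. The spread between mice is given as the SD in percent of the mean (CV). It was 6.82% for P2RY12, 5.55% for CX3CR1, 4.62% for CSF1R and 6.28% for TMEM119. The median over all genes at 10 CPM or more was 9.16%, but the CV falls with level. Beside genes of the same level, the CV was 1.09 times the usual for P2RY12, 0.885 for CX3CR1, 0.737 for CSF1R and 1.00 for TMEM119. All 4 markers thus lay far above the median expressed gene, at 17.6 TPM, in every AppHu library.

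All 20 genes of a list of microglial identity genes were expressed, and 15 of them were above the 90th percentile of genes with a length, with a median of 1333 TPM. GPR34, a receptor for lysophosphatidylserine, lay between CX3CR1 and CSF1R at 10190 ± 463 TPM. The next highest were SELPLG, the P-selectin ligand, at 3606 ± 229.8, OLFML3 at 3112 ± 228 and P2RY13, another ADP receptor, at 3003 ± 156 TPM. MERTK, a receptor for apoptotic cells, was at 1401 TPM, whereas its bridging ligands were among the lowest of the list, with GAS6 at 19.6 and PROS1 at 14.1 TPM. CABLES1 was the lowest, at 10.2 TPM. The summed level of the list lay between 49020 CPM in replicate 7 and 55625 in replicate 3, a CV of 5.56%.

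**Figure D1:**
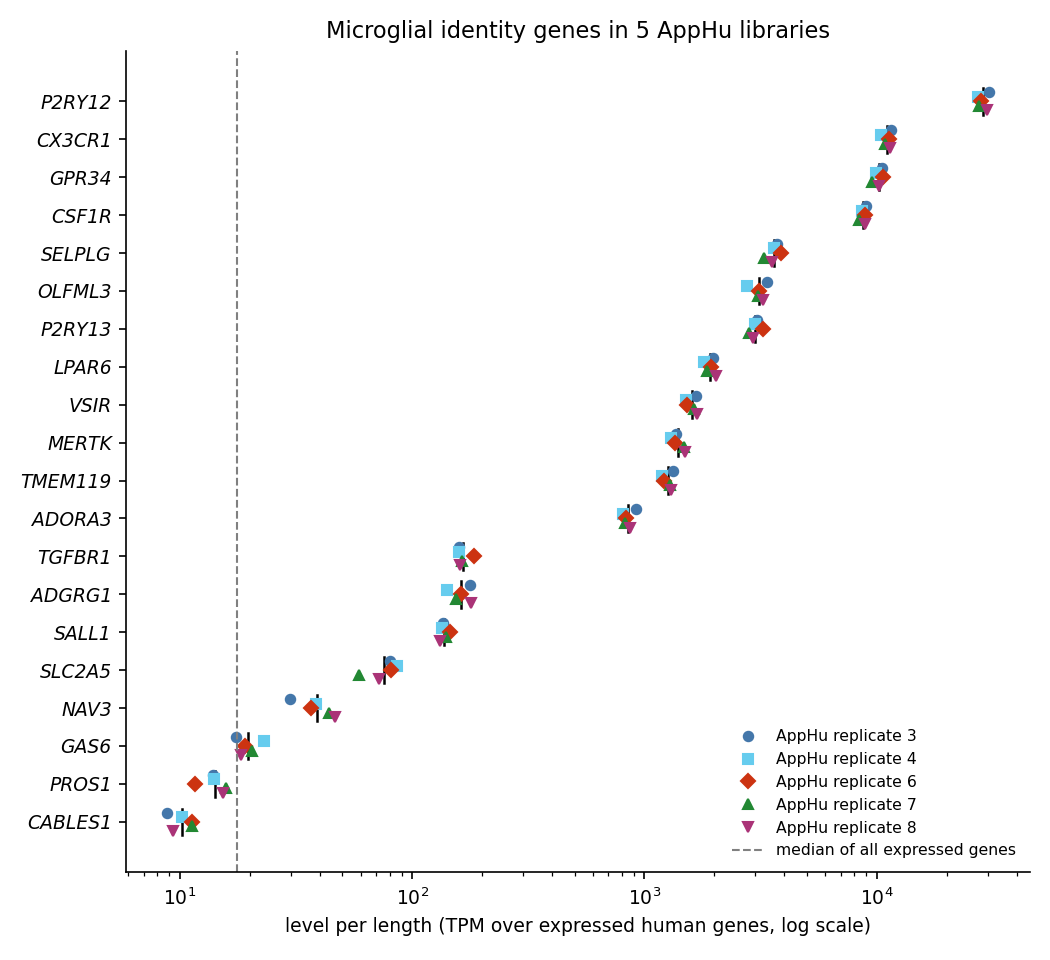
Level of the 20 microglial identity genes in each of the 5 AppHu mice, in TPM on a log axis, with 1 symbol per mouse, a short black line at the mean and a dashed line at the median of all expressed genes, 17.6 TPM. The symbols of a gene lie close together beside the distances between genes, from P2RY12 at a mean of 28661 TPM down to CABLES1 at 10.2 TPM.

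The transcription factors of myeloid cells spanned a wide range of levels. All 20 listed factors were expressed, with a median of 68.7 TPM. MAF was the highest at 833 ± 71.6 TPM, followed by IRF8 at 555 ± 100.3 and MEF2C at 461 ± 22.3. SALL1, which marks microglia among brain macrophages, was at 137 ± 5.39 TPM and varied little, between 187 and 202 CPM. SPI1, which encodes PU.1, was at 27.8 ± 0.826 TPM, and lay within 11.9 to 12.9 CPM in all 5 mice. RUNX1 at 8.44 TPM and CEBPA at 8.93 TPM were the lowest of the list. A transcript level says nothing of the amount of protein.

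IRF8, which drives microglial and interferon-related genes, did not keep the same level in all mice. It was at 938, 1116, 685, 1066 and 1050 CPM in replicates 3, 4, 6, 7 and 8, so that replicate 6 lay below the other 4. BHLHE40, a repressor of the clock and of macrophage genes, was at 11.6, 11.2, 13.7, 7.31 and 6.92 CPM, with replicates 7 and 8 the lowest. The summed level of the factors was 4910 CPM in replicate 6 and between 5535 and 5655 CPM in the others.

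Among the genes of CSF1 and TGF-β signalling, 11 of 13 were expressed. The receptors were well above the ligands, with TGFBR1 at 165 and TGFBR2 at 124 TPM against 12.6 TPM for TGFB1. NRROS, which presents latent TGF-β on microglia, was at 16.6 TPM. LTBP1 had no count in any library, and IL34, the other ligand of the CSF1 receptor, had 0 or 1 count. Human CSF1 itself was measured at 12.4, 11.5, 14.1, 10.7 and 19.3 CPM, highest in replicate 8. Host cells carry human CSF1 sequence at the mouse locus in the exchanged part only. Reads from that part cannot be told apart between grafted and host cells. Mouse Csf1 had 79 to 186 counts per library, beside 346 to 569 on human CSF1.

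The purinergic system, through which microglia sense nucleotides released by other cells, was covered by 12 of 14 listed genes. Besides P2RY12 and P2RY13, the highest were the adenosine receptor ADORA3 at 851 TPM, the deaminase ADA2 at 240.2, the ectonucleotidase ENTPD1 (CD39) at 236, the ATP-gated channel P2RX4 at 189 and P2RX7 at 166 TPM. P2RY6, the UDP receptor, was at 41.2 TPM. ADORA2A, P2RY14 and P2RX1 were all below 5 TPM, and P2RY2 and NT5E (CD73) did not reach the count minimum.

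Complement genes were led by C3, whose product is the centre of the cascade. C3 held the highest CPM of any gene, between 18087 and 20492, and 7359 ± 285 TPM after division by its length. The 3 chains of C1q were at similar levels, with C1QB at 2062 ± 95.8, C1QA at 1576 ± 71.2 and C1QC at 1380 ± 70.3 TPM. The receptor VSIG4 was above them at 2592 TPM, the receptors C3AR1 and C5AR1 were at 832 and 117 TPM, and the inhibitor CD55 was the lowest expressed member at 6.06 TPM. CFP and CR1 were not expressed by the count minimum. The list sum varied by 4.82% between mice, from 24145 CPM in replicate 6 to 26817 in replicate 8.

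The TREM2 signalling chain, through which microglia respond to lipids and debris, was expressed in full, 9 of 9 genes. TREM2 was at 2616 ± 109.7 TPM and its adaptor TYROBP at 2255 TPM. Downstream, the phosphatase INPP5D was at 810 TPM, the kinase SYK at 537 and PLCG2 at 43.8 TPM. The chain had a steady sum, 4166 to 4395 CPM, a CV of 2.08%. PLCG2 was the most variable member, between 129 CPM in replicate 6 and 221 in replicate 7. Of the 27 genes at Alzheimer risk loci 26 were expressed, and their sum had the smallest CV of the lists, 1.08% (8161 to 8404 CPM). Single members were not as steady as the sum, with a median CV of 10.99%, which is 1.14 times that of genes at the same level.

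APOE, the lipid carrier with the best-known Alzheimer risk alleles, was at 78.2 ± 8.38 TPM and 33.0 to 43.5 CPM, at the 83.4 percentile of genes with a length. It also belongs to the disease-associated microglia genes, which are known to be induced near plaques. Of these 18 genes 17 were expressed in the AppHu brains, and CST7 was not. SPP1 (osteopontin) was high, at 3182 ± 409 TPM, while GPNMB at 20.6, CHI3L1 at 13.6, CD9 at 6.74, LGALS3 at 6.59 and FABP5 at 6.16 TPM were near or below the median expressed gene. The expressed members ranged from FABP5 up to SPP1 and shared no common level.

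Some of the disease-associated genes varied strongly between mice that shared a genotype but were not all of the same sex. GPNMB, a lysosomal glycoprotein, was at 18.9, 60.4, 26.6, 13.5 and 15.7 CPM, with replicate 4 far above the others. CD9, a tetraspanin, was at 7.47, 14.6, 11.6, 4.01 and 6.00 CPM. LGALS3 (galectin-3) was at 3.88, 5.49, 3.70, 1.498 and 1.59 CPM. All 3 genes were highest in replicate 4 and lowest in replicate 7. Of the 17 expressed list members, 10 were highest in replicate 4 and 11 were lowest in replicate 7. The shares over all genes at 10 CPM or more were 14.8% and 25.4%. SPP1 was also highest in replicate 4, at 5982 CPM, and lowest in replicate 7, at 4344. In contrast TREM2, CTSB and CTSD of the same list had CVs of 5.13, 4.54 and 6.05%. Their CPM was higher than that of GPNMB, CD9 and LGALS3, and the CV falls with level.

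The lysosome, the degradative compartment of a phagocyte, was expressed in 35 of the 36 listed genes. PSAP, the precursor of the saposins, was the highest at 12102 ± 524 TPM, and CTSZ the lowest at 1.81 TPM. Most members were steady, with a median CV of 6.10%. CST3 (cystatin C), chosen after its values were seen, was not, at 98.9, 85.8, 47.8, 185 and 123 CPM. It was lowest in replicate 6 and highest in replicate 7, a pattern taken up below.

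The mitochondrial genes MT-CO1 and MT-CO3, subunits of cytochrome c oxidase, were at ranks 3 and 5, with means of 20438 and 14124 TPM. By TPM the top 20, leaving out mitochondrial and ribosomal protein genes, held the lysosomal gene PSAP given above, TMSB4X at 15324 ± 1319, ACTB at 10240 ± 813, B2M at 7431 ± 494 and HLA-E at 3135 ± 114. They also held A2M, a protease inhibitor that human microglia make, at 8681 ± 309.7, SAT1 at 7255 ± 913, LAPTM5 at 6043 ± 271, MALAT1 at 4567 ± 368, IFNGR1 at 4382 ± 341 and FOLR2 at 3125 ± 237. Genes of iron and lipid handling were all expressed, 18 of 18, with a sum of 7390 to 8596 CPM, and so were 12 of 12 pan-myeloid genes. The ferritin heavy chain FTH1, chosen after its values were seen, was only at 151 TPM. The many near-identical copies of FTH1 in the genome make its value uncertain, because the handling of reads with several matches is not given in the sources used here.

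Transcripts were spread over many genes. The 10 highest genes held 10.7 ± 0.295% of human counts (SD, n = 5), the 100 highest 26.98 ± 0.541% and the 1000 highest 57.8 ± 0.533%. The 13 mitochondrial genes held 1.79 to 1.94% and the 81 ribosomal protein genes 0.701 to 0.948%. Of the expressed genes, 8672 (55.2%) were at 10 CPM or more, 2078 at 100 or more and 93 at 1000 or more. At the lower end the count minimum decided membership. The third-highest count was exactly 10 in 225 genes, with a median of 0.318 CPM, and exactly 9 in 243 genes outside, with a median of 0.289 CPM.

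**Figure D2:**
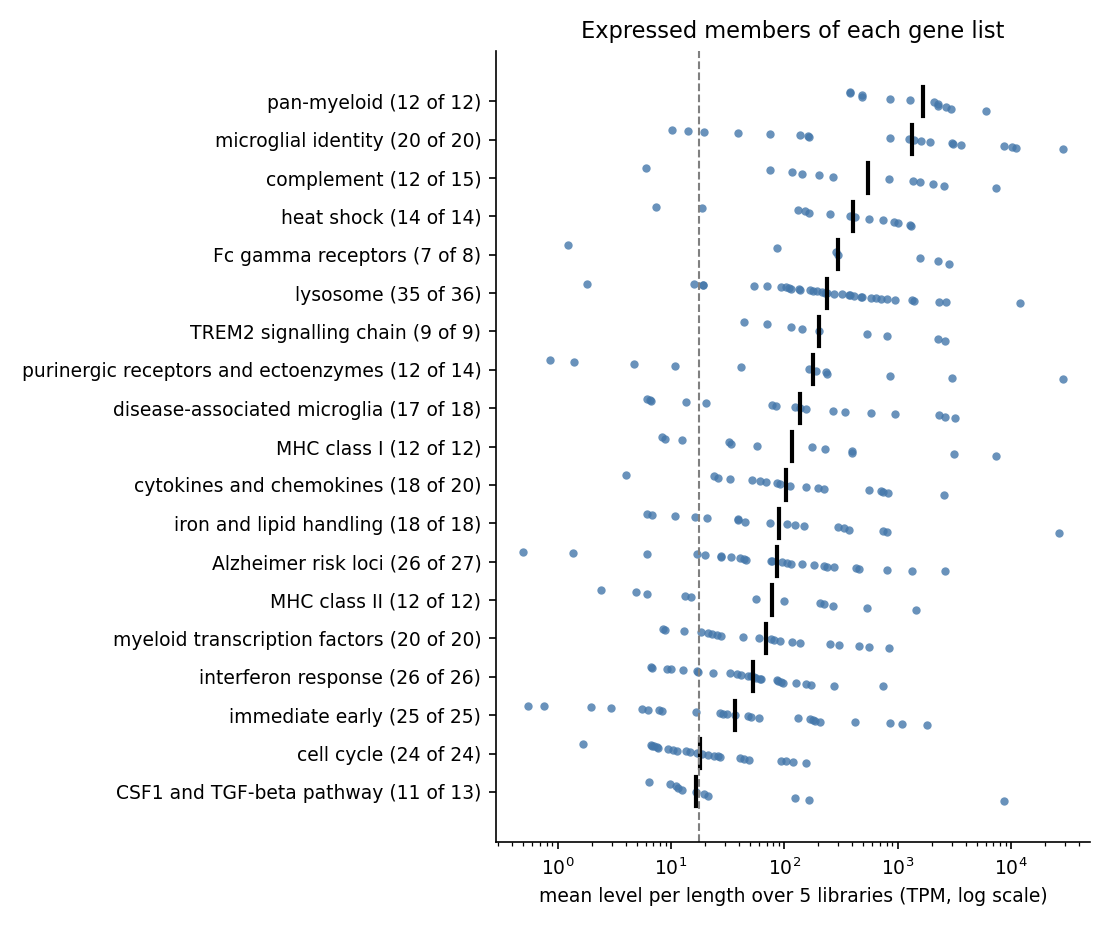
Mean TPM over the 5 AppHu mice of each expressed member of 19 gene lists, on a log axis, with 1 point per gene, a black line at the list median, a dashed line at 17.6 TPM (median of all expressed genes) and the number of expressed of listed genes beside each name. Pan-myeloid and identity genes have the highest medians, 1692 and 1333 TPM, and the CSF1 and TGF-β list the lowest, 16.6 TPM.

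Defining markers of other cell types were mostly absent or near 0. No pluripotency gene of 8 was expressed, and POU5F1 had 3 to 7 counts per library. Of 8 neuronal markers 1 was expressed, of 8 T and NK cell markers 1, of 13 megakaryocyte and erythroid markers 2, all of them under 4 CPM. GFAP had at most 5 counts, and AQP4, CLDN5, CDH5, MPO, CPA3, TPSAB1, S100A12, FCN1, FLT3 and XCR1 had 0 in every library. A count of 0 allows up to 0.0778 to 0.108 CPM (3 counts), for counting error only.

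Over whole lists, 6 of 10 monocyte markers were expressed, summing to 89.98 to 104 CPM, 2 of 8 granulocyte markers (940 to 1059 CPM), 2 of 8 mast cell markers (242 to 286 CPM), 5 of 8 dendritic cell markers (10.99 to 16.3 CPM) and 2 of 6 B cell markers (3.06 to 5.93 CPM). Among brain cells, 3 of 8 astrocyte markers summed to 334 to 459 CPM, 4 of 12 oligodendrocyte markers to 109 to 142 CPM, 3 of 7 endothelial markers to 106 to 162 CPM and 2 of 9 mural markers to 1.90 to 3.73 CPM.

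A few genes on these lists were well expressed even so. CSF3R, the G-CSF receptor listed for granulocytes, was at 924 to 1042 CPM. SLC1A3, a glutamate transporter listed for astrocytes, was at 331 to 456 CPM, HPGDS at 213 to 227 CPM and PECAM1 at 103 to 157 CPM. The defining genes of the same lists were at or near 0, as given above. The cell type they came from was not tested. Genes of border-associated macrophages were all expressed, 10 of 10, led by FOLR2. MRC1 was at 1063, STAB1 at 818, LYVE1 at 635 and MS4A7 at 528 TPM, while F13A1 was at 85.8, CD163 at 39.1, CD209 at 32.3 and COLEC12 at 2.69 TPM.

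Cell cycle genes were expressed at modest levels in every mouse, 24 of 24, with a summed level of 680.2 to 865 CPM. PCNA was the highest at 157 TPM and TYMS the lowest at 1.68 TPM. MKI67, a marker of dividing cells, was at 17.1 to 23.9 CPM.

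The spread between the 5 mice depended on level. The median CV was 43.0% for the 2584 genes below 1 CPM, 22.5% from 1 to 10, 10.1% from 10 to 100, 6.75% from 100 to 1000 and 6.46% for the 93 genes at 1000 CPM or more. At 10 CPM or more, counting error alone gives a median CV of 2.56%, so most of the 9.16% seen there was not counting error. Of the 15 steadiest genes, 10 varied less than counting error alone would give, against 100 (1.15%) of all genes at 10 CPM or more. The 15 were picked for the smallest CV, so such low values follow in part from the choice. DPAGT1, the first enzyme of N-glycosylation, had a CV of 0.410%, below the 1.49% from counting alone, AKAP10 had 0.823% and KMT2E 0.955%. SRSF5, a splicing factor, stayed between 868 and 900.4 CPM, and NR3C1, the glucocorticoid receptor, had a CV of 1.55%.

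**Figure D3:**
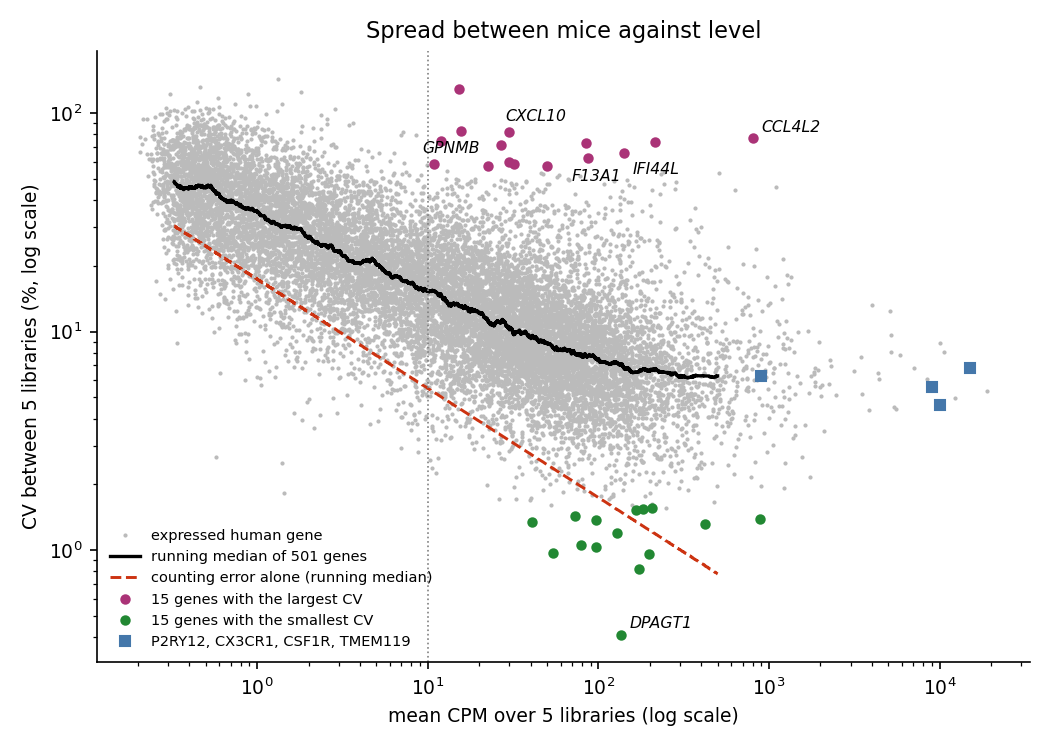
CV over the 5 AppHu mice against mean CPM for each expressed human gene, both on log axes, with the running median of genes of similar level (black), the CV that counting error alone would give (dashed), the 15 largest and 15 smallest CVs at 10 CPM or more and the 4 markers (squares). The median falls from 43.0% below 1 CPM to 6.46% at 1000 CPM or more, and the named genes with the largest CV lie far above it.

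At the other end, 294 of the 8672 genes at 10 CPM or more (3.39%) had a CV of 30% or more. Of these, 232 were lowest in replicate 6 and 195 highest in replicate 7, and 187 (63.6%) were both, against 11.4% of all genes at 10 CPM or more. Without replicate 6 the number of genes with such a CV was 126, and without replicates 6 and 7 it was 104, so much of this spread rests on these libraries. Across these 187 genes the median deviation from the mean of the 5 mice was -0.96 in replicate 6, 0.66 in replicate 7 and 0.33 in replicate 8 on the log2 scale, and near 0 in replicates 3 and 4. Their median GC content was 54.8%, against 52.1% over the 294 genes and 46.8% over all genes at 10 CPM or more. GC content was known for 8524 of the latter. Over these, it correlated only weakly with the deviation of a library from the gene's mean. The coefficient was -0.12 in replicate 6, 0.13 in replicate 7 and 0.086 in replicate 8. Whether base composition causes the pattern was not tested. JUNB, CST3 and FTH1 belonged to this set.

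Among the 15 genes with the largest CV the highest mouse was replicate 7 for 5 genes, replicate 8 for 4, replicate 4 for 3, replicate 6 for 2 and replicate 3 for 1. Their lowest mouse was replicate 6 for 8 genes, replicate 7 for 4, replicate 4 for 2 and replicate 8 for 1. HIST1H2BG, a histone H2B gene with near-identical copies, was at 6.36, 4.25, 4.70, 10.8 and 50.0 CPM, so its CV of 129% came from replicate 8. CXCL10, a chemokine induced by interferon, was at 73.1, 12.9, 15.3, 25.4 and 23.2 CPM and stood out in replicate 3. SLC38A4, an amino acid transporter, was highest in replicate 4, at 26.9 CPM against 4.55 to 11.6 in the others. F13A1, a transglutaminase of macrophages, was at 77.1, 90.2, 176, 35.3 and 56.4 CPM, and CD163L1, a scavenger receptor, at 20.4, 23.4, 44.2, 12.6 and 12.6 CPM. Both of these were highest in replicate 6, the opposite of the larger set, as was CD163 at 75.9 CPM. PPP1R15A, a stress-induced phosphatase subunit chosen after its values were seen, was at 175, 179, 161, 154 and 40.8 CPM, low in replicate 8 alone.

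**Figure D4:**
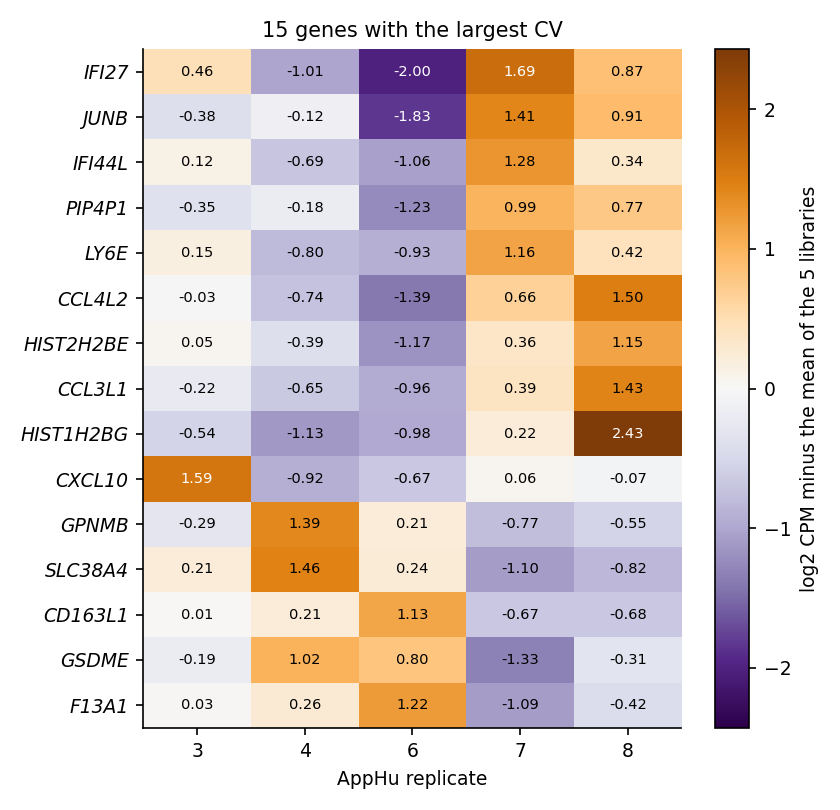
Level of each of the 15 genes with the largest CV in each AppHu mouse, as log2 CPM minus the mean over the 5 mice, with genes in rows, mice in columns and the value printed in each cell. Orange is above and purple below the mean, and the maxima lie in different mice, such as replicate 8 for HIST1H2BG (2.43), replicate 3 for CXCL10 (1.59) and replicate 6 for F13A1 (1.22).

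Interferon-response genes varied together between the mice. All 26 listed genes were expressed, with a summed level of 2344, 1775, 1646, 3094 and 2331 CPM in replicates 3, 4, 6, 7 and 8. The highest mouse was 1.88 times the lowest. Of the 26 genes, 22 were highest in replicate 7 and 19 lowest in replicate 6, against 19.7% and 28.5% of all genes at 10 CPM or more. Among the 294 genes with a CV of 30% or more the shares were 66.3% and 78.9%, so the interferon genes followed the same mice as most variable genes, and 10 of the 26 belonged to the set of 187. BST2 (tetherin) had the highest level, 748 TPM, and USP18, which restrains interferon signalling, the lowest, 6.73 TPM.

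Single members varied more than the sum. IFI27 was at 15.02, 5.44, 2.73, 35.2 and 19.9 CPM, a 12.9-fold range. IFI44L was at 130.3, 74.3, 57.5, 291 and 151 CPM, IFI6 at 63.7, 30.7, 26.0, 95.9 and 70.5 CPM and LY6E at 28.8, 14.8, 13.6, 57.7 and 34.7 CPM. In all 4 the order of the mice was the same, with replicate 7 highest and replicate 6 lowest. STAT2, a factor that carries the interferon signal to the nucleus, kept 254 to 273 CPM, a CV of 2.69%.

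These genes are known to be switched on through the interferon-stimulated response element, and the sequence is shown here because the genes varied together. It was searched as 2 copies of GAAA with 2 bases between them, on both strands, from 250 bases before to 50 bases after the RefSeq start site (GRCh38.p14). It was present in 13 of the 18 listed genes with a promoter in the table (72.2%) and in 3.65% of all 27305 promoters. Windows of 28 bases around a match follow, 5′ to 3′ on the strand of the gene, with the match in capitals, for BST2 (chr19:17405739-17405766, minus strand), IFI27 (chr14:94110619-94110646, plus), IFI44L (chr1:78620275-78620302, plus), IFI6 (chr1:27672330-27672357, minus) and ISG15 (chr1:1013378-1013405, plus).
BST2: ttctggGAAACTGAAACTGAAAacctaa
IFI27: tgtctgcagTTTCGGTTTCctggaaaat
IFI44L: cctagtgagGAAAAAGAAAgttagtggc
IFI6: gagagagggGAAAATGAAActctgcaga
ISG15: cctcggGAAAGGGAAACCGAAActgaag
In BST2 and ISG15 overlapping matches run together, and in IFI27 the match is on the opposite strand. A match is a description of the letters, not a site or a cause.

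Heat shock genes were abundant and also highest in replicate 7. The 14 listed chaperones and co-chaperones summed to 5575, 5985, 5016, 6871 and 6008 CPM. Of them 12 were highest in replicate 7 and 10 lowest in replicate 6, against the same 19.7% and 28.5% of all genes at 10 CPM or more. Among the 294 genes with a CV of 30% or more the shares were, as above, 66.3% and 78.9%. The heat shock genes thus also followed the same mice as most variable genes. HSPB1 was at 47.8, 57.9, 26.6, 110 and 53.1 CPM, and HSPA6, which is expressed almost only under stress, at 126, 111, 111, 197 and 113 CPM. SERPINH1, a collagen chaperone, was at 29.1, 30.0, 10.2, 33.8 and 29.8 CPM, low in replicate 6 alone. The near-identical genes HSPA1A and HSPA1B were at 602 to 817 and 601 to 813 CPM and share reads.

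Heat shock factors bind inverted repeats of GAA. GAA, TTC and GAA with 2 bases between each, on both strands, was in 4 of the 14 promoters of the list (28.6%) and in 0.487% of all promoters. The 4 windows are from HSPA6 (chr1:161524459-161524486, plus strand), HSPA8 (chr11:123062346-123062373, minus), DNAJA1 (chr9:33025269-33025296, plus) and SERPINH1 (chr11:75562170-75562197, plus), with the match in capitals.
HSPA6: ggaaaggTTCGCGAAAGTTCgcggcggc
HSPA8: cgagcttGAAAGTTCCAGAAcgctgcgg
DNAJA1: ccgggcgGAACTTTCCAGAAcgctcggt
SERPINH1: tccaactTTCCAGAAGTTTCtcgggacg
The cyclic AMP response element TGACGTCA was in 3 of 21 promoters of immediate early genes (14.3%, against 1.98% of all promoters), and the PU.1 letters GAGGAAGT in 1 of 16 promoters of identity genes (6.25%, against 2.54%), that of ADORA3.

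Cytokines and chemokines had the largest spread of a list sum among the microglial lists. The 18 expressed genes summed to 2623, 2142, 1842, 3185 and 4258 CPM, a CV of 34.0%, with replicate 8 the highest and replicate 6 the lowest. CCL4L2 alone was at 618, 378, 241, 994 and 1776 CPM, and CCL3L1, a gene with near-identical copies outside the list, at 153, 113, 91.2, 233 and 479.9 CPM. CCL2, which attracts monocytes, was at 219, 153, 133, 295 and 414 CPM. These genes kept the same order of mice. CCL4 and CCL4L2, and CCL3 and CCL3L1, are near-identical copies, and the authors' counting could have split reads between them.

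Cytokine genes outside the chemokine cluster did not all share this order. TNF was at 63.1, 36.8, 35.3, 81.3 and 72.0 CPM, with replicate 7 highest. IL1A was highest in replicate 6, at 52.9 CPM against 33.2 to 40.1 in the others. IL1B, between 41.1 and 52.4 CPM, IL10, between 29.9 and 35.8, and IL18, between 124 and 134, had CVs of 9.31, 7.34 and 3.04%. CXCL16, a membrane-bound chemokine, was the second highest of the list by TPM, at 829, and steady, at 486 to 551 CPM. CCL7 had no count.

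Immediate early genes, which respond within minutes to stimulation and also to tissue dissociation, were all expressed, 25 of 25. They summed to 3229, 2993, 2878, 3711 and 4322 CPM. Of the 25 genes, 17 were highest in replicate 8 and 16 lowest in replicate 6, against 20.3% and 28.5% of all genes at 10 CPM or more. Among the 294 genes with a CV of 30% or more the shares were 16.7% and 78.9%. FOS was at 1165, 1149, 1161, 1291 and 1649 CPM and NR4A2 at 34.95, 30.3, 27.3, 50.7 and 74.98 CPM. JUNB was at 49.8, 59.7, 18.3, 172 and 122 CPM. Chemokine and immediate early genes thus had their highest sums in the same mouse, replicate 8.

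MHC class II genes, which present antigen, were highest in another mouse, replicate 6. All 12 were expressed, all 12 were highest in replicate 6, and 11 of 12 were lowest in replicate 7, against 24.2% and 25.4% of all genes at 10 CPM or more. Their sum was 2394, 2448, 2565, 1818 and 2140 CPM, most of it from CD74, the invariant chain, at 1546, 1561, 1572, 1220 and 1480 CPM. HLA-DRA was at 154, 165, 198, 98.9 and 128 CPM. HLA-DQA1 was the lowest of the list at 3.09, 4.35, 7.35, 1.68 and 2.14 CPM. CIITA, the master regulator of the class, was at 21.7, 32.4, 47.5, 23.7 and 29.1 CPM, also highest in replicate 6 but lowest in replicate 3. Of the border-associated macrophage genes, 6 of 10 were also highest in replicate 6. Their sum was 5646, 5375, 5665, 4909 and 5412 CPM in replicates 3, 4, 6, 7 and 8, lowest in replicate 7 like the class II sum. Replicate 3 was close to replicate 6, and the mice between the extremes did not keep the class II order. The part of these macrophage genes in the class II values was not tested. The median CV of the class II list was 23.5%, which is 2.45 times that of genes at the same level. HLA genes differ between people and resemble each other, so alignment to the reference makes their absolute levels uncertain.

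MHC class I genes varied less. Their sum lay between 8109 and 9418 CPM with a median CV of 5.78%, and HLA-B and HLA-C were at 230 and 399 TPM. The Fc receptor genes were likewise steady, with a sum of 5317 to 5939 CPM. FCGR3A was the highest, at 2857 ± 134 TPM, and is uncertain because FCGR3B is a near-identical copy.

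**Figure D5:**
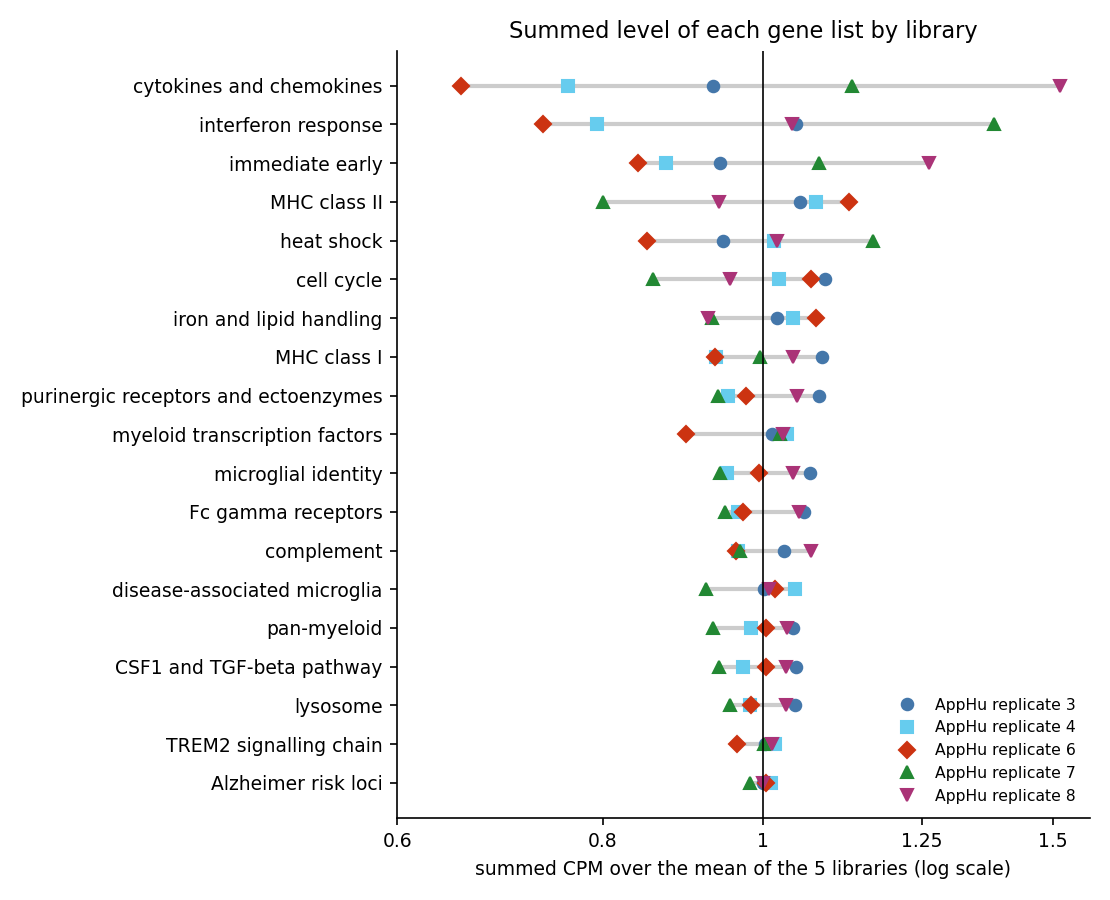
Summed CPM of each gene list in each of the 5 AppHu mice, divided by the list's mean over the mice, on a log axis, with 1 symbol per mouse and a grey line from the lowest to the highest. Cytokine and interferon lists spread widely, with CVs of 34.0 and 25.7%, and the sums for Alzheimer risk loci and the TREM2 chain least, at 1.08 and 2.08%.

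Lists of inducible genes spread more between the mice than the list of identity genes. The identity list had a median CV of 6.80% against 14.7% over all expressed genes, while the interferon list had 29.3%, the immediate early list 32.7%, the cytokine list 24.4% and the heat shock list 20.5%. Compared with genes of the same level, the median interferon gene had 3.76 times the usual CV and the median identity gene 1.01 times.

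APP was among the genes that differed between the mice, at 45.5, 43.2, 25.2, 69.5 and 67.2 CPM. Mouse App had more counts, 2193 to 4155 against 907 to 2321 human counts per library, in a host whose App carries the humanized amyloid-β sequence, and reads assigned to the wrong species were not tested. PTPRC (CD45) at 1232 to 1396 CPM and ITGAM (CD11b) at 471 to 491 CPM were used for the sort, so their presence is not a finding.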

How the data were processed

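The authors sorted CD11b+ human CD45+ cells, prepared libraries from 1 ng RNA (SMART-Seq HT PLUS, full-length cDNA) and read them from 1 end. Reads were aligned by STAR 2.7.11a to a combined mm10 and GRCh38 reference and assigned them to genes with featureCounts 2.0.1 (FastQC 0.11.9 for quality, per the submitters' processing notes). The deposited values are raw counts per gene, neither normalized nor filtered. The annotation release, the strand setting and the handling of reads with several matches are not given in the sources used here.

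The 5 AppHu columns were matched to samples by name. Human rows are those above the first mouse row. A gene had to reach 10 counts in 3 or more of the 5 libraries. CPM used human counts with TMM factors (edgeR 4.0.16, R 4.3.3). TPM used the union of exons of GENCODE 44, matched by symbol, over the expressed genes with a length. Spread is the CV over mice, and relative spread divides it by the running median over genes of similar level. With 1 group no groups were compared. Library pairs were compared by chi-square per degree of freedom and single mice by Dixon's ratio. The spread measures were tested on simulated data. Promoters are RefSeq (GRCh38.p14), searched for 4 motifs. Python 3.11.15, numpy 2.4.6, pandas 2.3.3 and matplotlib 3.10.9 were used.

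The members and the gene lists were chosen with earlier results of these data known. Genes named are the 4 markers, the 20 highest by TPM (mitochondrial and ribosomal protein genes left out), the 15 largest and 15 smallest CVs at 10 CPM or more, list members (the highest, the lowest and those not expressed, and any member of the identity, transcription factor, purinergic, complement, MHC and disease-associated lists), CSF1, APP, PTPRC and ITGAM. Other list members, such as single cytokine, heat shock, interferon and immediate early genes, were chosen after their values were seen. Alternatives were other scaling factors, filters, lengths, denominators and spread measures, thinned libraries and each library left out. Reads were amplified without molecular identifiers, so floors and counting errors cover counting only. The depth per library was 28386080 to 38325734 human counts. Some genes are not reported here.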

Additional observations from a re-analysis of the deposited data

Results flagged for a closer look

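In each group of 5 mice, a mouse was singled out when its gap to the nearest other mouse, divided by the whole range, was above Dixon's critical value of 0.71. Of 173 values checked (genes named in the text, list sums and library measures) 16 were singled out. Chance alone gives about 1 in 20 for groups not picked by their values. Many of the genes checked were named for a large CV or after their values were seen. The 16 can therefore not be set against that rate.

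Replicate 6 stood apart most often. It was the highest mouse for TGFBR1 at 325 CPM and TGFBR2 at 227 CPM, both receptors for TGF-β, and for the megakaryocyte and erythroid list at 1.86 CPM. It was the lowest for SPI1 at 11.9 CPM, the chaperones HSPA8 at 778 CPM and SERPINH1 at 10.2 CPM, and the summed transcription factors at 4910 CPM. Replicate 7 was the lowest for CD74 at 1220.0 CPM, and the highest for HSPA6 at 197 CPM. Replicate 8 was the highest for HIST1H2BG at 50.0 CPM and FOS at 1649 CPM and the lowest for PPP1R15A at 40.8 CPM. Replicate 3 was the highest for CXCL10 at 73.1 CPM and HLA-B at 253 CPM and the lowest for TYMS at 0.718 CPM, and replicate 4 the highest for GPNMB at 60.4 CPM.

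The mouse genes, which the comparisons above do not use, held a mean of 3.85% of all counts although the cells were sorted with a human antibody.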

How the results depend on the processing

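Over 215 values and 1651 alternative values, 1529 were called the same and 122 were called moved. A level, share or list sum was called the same if it moved by less than the SD over the mice. A count or rank had to stay within 1.5 times, and a CV within its error from leaving out each mouse. Leaving out 1 of 5 mice can hardly move a mean by a whole SD, so those values could barely come out as moved. The number of expressed genes was 24266 with at least 1 count in any library and 15214 to 15407 when each library was left out. With the longest transcript as the length, P2RY12 was at 21835, CX3CR1 at 9130, CSF1R at 8281 and TMEM119 at 1107 TPM. Without mitochondrial genes the top 100 genes held 26.4% and the top 1000 held 57.3% of counts. The median CV over expressed genes was 13.1% with at least 10 counts in all 5 libraries, 29.3% with at least 1 count in any, 11.8% as the SD of log2(CPM + 1), 16.7% as the tagwise biological CV of edgeR and 12.6 to 14.2% with each library left out. At 10 CPM or more it was 11.7% with edgeR and 8.30 to 9.39% with each library left out. Genes with a CV of 30% or more numbered 107 with edgeR and 126 (without replicate 6) to 380 with each left out. Leaving out both replicates 6 and 7, chosen after seeing the data, gave 10.95%, 7.73% and 104 genes for these 3 measures. With at least 10 counts in all 5 libraries 1 B cell marker was expressed. The causes were not tested. No paired analysis was possible because there is 1 group and no result comes from a test. Genes near 10 counts are limited by depth.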

Other observations

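Reads assigned to mouse genes came with transcripts of other brain cells. Mouse oligodendrocyte markers summed to 1735 to 3415 CPM of all counts in the 5 libraries, mouse astrocyte markers to 89.1 to 631, mouse microglia markers to 219.9 to 436, mouse erythroid markers to 20.9 to 384 and mouse neuron markers to 3.76 to 7.59. The oligodendrocyte sum was highest in replicate 6 and lowest in replicate 7, whereas the erythroid sum was lowest in replicate 6. The sums for mouse astrocytes and erythroid cells were both highest in replicate 8.

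Of the expressed human genes, 11015 had a mouse gene of the same name, and 413 of these (3.75%) had more mouse than human counts. The myelin gene MBP had 1182 to 2070 human counts per library and mouse Mbp had 7280 to 14100. APOE had 1038 to 1679 human counts and mouse Apoe 1843 to 7515, and FTH1 had 642 to 3527 human counts and mouse Fth1 7187 to 14395. CD9 had 134 to 564 human and 844 to 1560 mouse counts, and CST3 had 1716 to 6192 human and 2995 to 8409 mouse counts. For such genes a small share of reads assigned to the wrong species would move the human value, and that share was not tested.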
